A study of Mus musculus with 27 samples.

Results

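The genes of prostaglandin synthesis, breakdown and reception described here are Ptgs1, Ptgs2, Ptges, Ptges2, Ptgds, Hpgd, Ptger3 and Ptger4, taken by symbol from the expression values of mouse kidneys after graded ischemia. They are 8 of the 19392 genes in the data, and all 8 were above 0 FPKM in every kidney. RNA-Seq was done on the left kidneys of 27 C57BL/6 mice, with 3 mice in each of 9 groups that differed in how long the left renal pedicle was clamped. The clamp times were 0 min (the sham group), 16, 18, 20, 22, 24, 26, 28 and 30 min. In this model, called uIRIx, the right kidney is removed and the left is clamped, with the mouse on a plate warmed to body temperature during surgery. The left kidney is then reperfused, here for 24 h. No genotype, transgene or drug differed between the groups, and the labels give no age. The 0 min mice went through the same 24 h and, as the labels describe the operation, lost the right kidney too, so a change shared by nephrectomy in every group is not visible here. Kidney tissue of mixed cell types was sequenced at 1 time after reperfusion, so less RNA per cell and fewer cells of a type cannot be told apart.

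Prostaglandins are short-lived lipid messengers. Cyclooxygenases, encoded by Ptgs1 and Ptgs2, turn arachidonate freed from membranes into prostaglandin H, and terminal synthases turn that into the individual prostaglandins. Prostaglandin E, the main one in the kidney, acts on 4 receptors that differ in their coupling: EP3 (Ptger3) lowers cyclic AMP and EP4 (Ptger4) raises it. The signal ends when the prostaglandin is taken up by a transporter and oxidised by the dehydrogenase that Hpgd encodes. In the kidney this system is known for its part in renal blood flow, renin release and the handling of salt and water in the thick ascending limb and collecting duct.

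The genes lie on 5 chromosomes of mouse genome build GRCm38, given here as GENCODE annotates them. Ptgs1 (chr2:36230426-36252272, plus strand), Ptges (chr2:30889471-30929863, minus strand), Ptges2 (chr2:32395896-32405772, plus strand) and Ptgds (chr2:25466709-25470046, minus strand) are on chromosome 2. Ptgs2 (chr1:150100031-150108227, plus strand), Ptger3 (chr3:157566892-157645888, plus strand), Hpgd (chr8:56294585-56321043, plus strand) and Ptger4 (chr15:5206661-5244187, minus strand) are each on another. Promoter sequence from RefSeq (GRCm38.p6) was matched for all 8. The 250 bases before the RefSeq gene start are printed for 4 of them: the 3 genes that changed by more than 1 on the log2 scale at 30 min, and Ptgs2, whose promoter holds the rarest of the motifs searched. They run 5′ to 3′ on the gene's own strand, and capitals mark a motif match.
Ptgs2, chr1:150099781-150100030, plus strand: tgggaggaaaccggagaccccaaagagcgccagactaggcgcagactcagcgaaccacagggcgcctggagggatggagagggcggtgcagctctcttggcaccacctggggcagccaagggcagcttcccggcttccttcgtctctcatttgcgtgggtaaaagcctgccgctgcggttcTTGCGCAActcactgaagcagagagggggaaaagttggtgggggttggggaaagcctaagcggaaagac
Ptger4, chr15:5244188-5244437, minus strand: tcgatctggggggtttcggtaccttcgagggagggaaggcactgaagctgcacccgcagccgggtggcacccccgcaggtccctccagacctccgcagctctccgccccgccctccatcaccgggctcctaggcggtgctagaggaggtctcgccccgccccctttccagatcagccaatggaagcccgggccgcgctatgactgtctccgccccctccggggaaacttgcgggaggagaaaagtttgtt
Hpgd, chr8:56294302-56294551, plus strand: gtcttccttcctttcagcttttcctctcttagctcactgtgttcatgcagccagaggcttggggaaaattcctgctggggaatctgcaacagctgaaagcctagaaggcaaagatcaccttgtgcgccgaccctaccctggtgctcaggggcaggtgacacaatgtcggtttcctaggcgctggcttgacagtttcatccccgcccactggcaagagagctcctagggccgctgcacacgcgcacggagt
Ptger3, chr3:157566626-157566875, plus strand: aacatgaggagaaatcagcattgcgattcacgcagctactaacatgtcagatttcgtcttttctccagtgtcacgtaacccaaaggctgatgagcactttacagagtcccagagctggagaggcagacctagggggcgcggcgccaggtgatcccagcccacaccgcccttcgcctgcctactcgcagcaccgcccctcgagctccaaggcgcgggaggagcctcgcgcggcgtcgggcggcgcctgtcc
The motifs were searched on both strands in the 300 bases from 250 before to 50 after the start. They were the cAMP response element TGACGTCA, CGTCA as a part of it, the AP-1 motif TGAGTCA, the E-box CACGTG, the C/EBP motif TTGCGCAA and the TATA box TATAAA. The capitals in Ptgs2 are TTGCGCAA, which begins 69 bases before the start and is held by 0.183% of the 32851 promoters in the table. Past the start, Ptgs2 also holds CGTCA at base 14, held by 20.8% of promoters, and CACGTG at base 17, held by 7.15%, the 2 matches overlapping. Hpgd holds TATAAA at base 5 after the start, a motif of 13.6% of promoters. Ptger3 and Ptger4, like Ptges and Ptgs1, hold none of these letters in the window. Ptgds holds TGAGTCA (5.2% of promoters) 35 bases before its start, on the other strand, and Ptges2 holds CACGTG 77 bases before its start. TGACGTCA, held by 1.79% of promoters, is in none of the 8.

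Values are FPKM, fragments divided by the length of the transcript and by the mapped total, and so may be compared between genes. Depth as a number of reads is unknown. From the steps of the low values over 167 genes, the 27 kidneys came to 0.984 to 1.04 of their median depth. That estimate kept only steps close to each gene's smallest, so it could not show a large difference in depth. Tests are those of limma on log2(FPKM + 1) after quantile normalization, with Benjamini-Hochberg adjustment over 18188 genes. A log2 fold change on this scale understates the change of genes near or under 1 FPKM. A DEG passes 2 thresholds, an adjusted p-value under 0.05 and a change of more than 1 on the log2 scale in either direction. Genes that passed the adjusted p-value are said to have risen or fallen, whatever their fold change. The labelled tissue held its markers: the proximal tubule list summed to 2719 to 3238 FPKM at 0 min, and the thick ascending limb list to 1566 to 1738. Of the 3 kidneys at 0 min, replicate 3 stood apart, with 63.62 FPKM of Lcn2, an injury gene, against 11.49 and 9.39. Of those at 16 min, replicate 3 stood apart in the other direction, with 31.43 FPKM of Lcn2 against 387.9 and 410.3. Of those at 30 min, replicate 3 stood apart, with 2034 FPKM of Umod, a thick ascending limb gene, against 462.9 and 454.4. Results that rest on these kidneys are given with and without them.

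At 0 min the 8 genes spanned levels from 32.1 FPKM ± 5.72 (SD, n = 3) for Ptger3 down to 0.477 ± 0.584 for Ptgs2. Between them, in order, stood Ptges2 at 22.4 FPKM ± 0.613, Ptgds at 17.4 ± 4.40, Ptges at 9.36 ± 0.490, Ptgs1 at 8.06 ± 1.59, Hpgd at 7.64 ± 0.680 and Ptger4 at 1.08 ± 0.0889. The ranges of the 3 kidneys overlapped between Ptges and Ptgs1, between Ptgs1 and Hpgd, and between Ptger4 and Ptgs2, and were apart between the other neighbours. At 30 min Ptges2 led with 26.6 FPKM ± 1.31 (SD, n = 3) and Ptger3, first at 0 min, had dropped to 7.43 ± 2.49. Between these, Ptges was at 14.0 ± 1.38, Ptgds at 12.0 ± 6.79 and Ptgs1 at 8.58 ± 1.72, and from Ptges down to Ptger3 each neighbour's range overlapped the next. Ptger4, at 4.25 ± 1.01, had passed Hpgd, at 3.01 ± 0.820, though their ranges overlapped. Ptgs2 was last at both times.

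**Figure D1:**
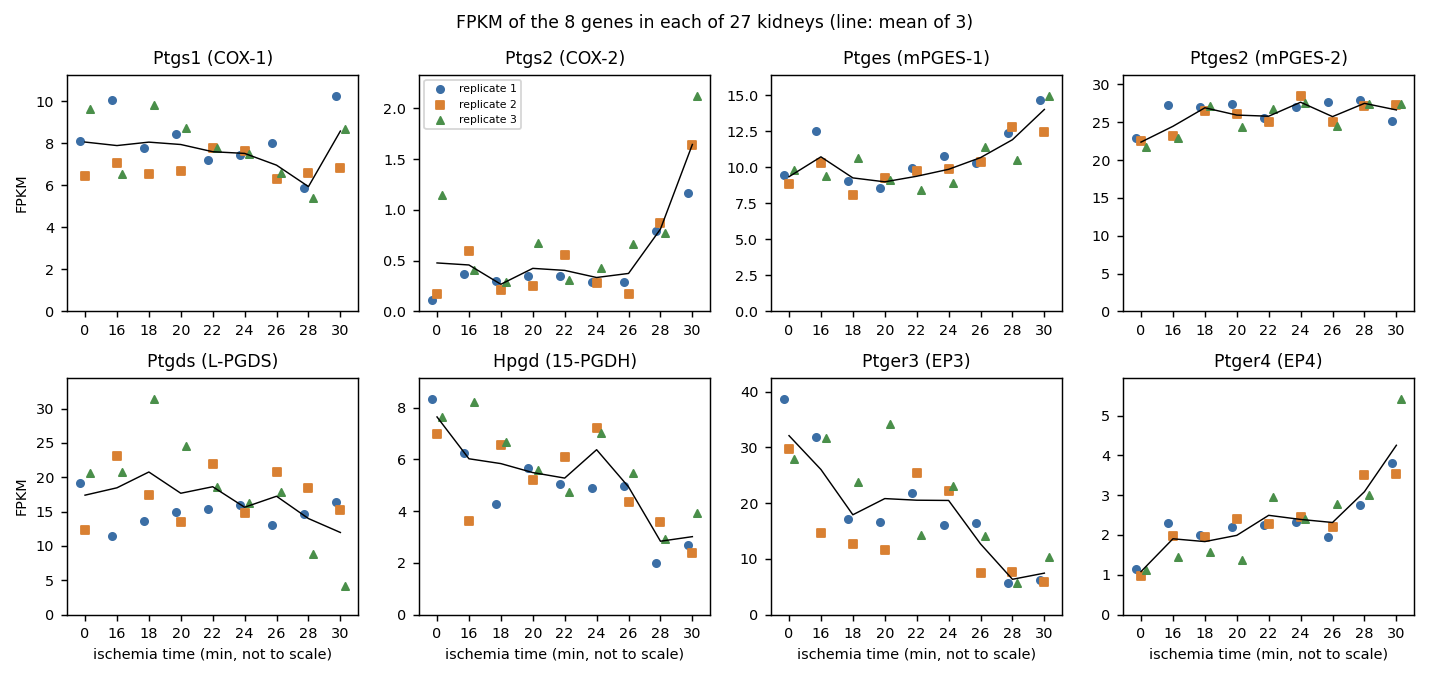
FPKM of each of the 8 genes (vertical axis) against ischemia time in min (horizontal axis, categories not to scale), 1 point per kidney with 3 kidneys per time and a line joining their means. Hpgd and Ptger3 have their lowest means at 28 and 30 min, where all 6 kidneys lie below the 3 of 0 min, while Ptger4 lies above the 0 min kidneys at every later time.

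Against 0 min, the number of the 8 genes that were DEGs was 0 after 16, 18, 20, 22 or 24 min, 1 after 26 min, 2 after 28 min and 3 after 30 min of ischemia. Over all genes tested, DEGs made up 2.25%, 3.06%, 2.51%, 3.29%, 3.12%, 3.77%, 8.48% and 10.7% in these 8 comparisons, from 16 to 30 min. By the adjusted p-value alone, 6 of the 8 changed at 30 min, 4 higher and 2 lower, where 52.3% of all genes did. At 28 min 5 did, 2 higher and 3 lower, where 48.2% of all genes did. The number by the adjusted p-value alone was 0 of 8 for the 16 min group (19.0% of all genes), 1 for 18 min (27.8%), 0 for 20 min (22.8%), 2 for 22 min (28.8%), 2 for 24 min (28.3%) and 3 for 26 min (30.1%). Without replicate 3 of 16 min, Hpgd and Ptger4 passed at that time. Higher genes made up 24.5% of all genes after 28 min and 26.9% after 30 min, and lower genes 23.6% and 25.4%. These 8 comparisons share the 3 sham kidneys. In FPKM, the 3 kidneys of 30 min lay all above those of 0 min for 4 of the 8 genes and all below for 2, where 33.3% and 21.2% of all genes did so.

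Ptgs2, the inducible cyclooxygenase, was the least abundant of the 8. It stood at 0.11, 0.17 and 1.15 FPKM in the 3 kidneys of 0 min, the last being the replicate with high Lcn2. At 28 min it was at 0.79, 0.87 and 0.77 FPKM, and at 30 min at 1.17, 1.64 and 2.12 FPKM. In FPKM all 3 kidneys of 30 min were thus above all 3 of 0 min, the lowest of them by little. Those of 28 min lay between the sham values. After quantile normalization, on the log2 scale, replicate 1 of 30 min (1.113) was below replicate 3 of 0 min (1.219). Ptgs2 rose at 30 min, with a log2 fold change of 0.85 (SE 0.19, adjusted p = 0.00098), below the fold change of a DEG. In a fit of the 2 groups alone it did not pass (adjusted p = 0.0913). Without replicate 3 of 0 min the log2 fold change was 1.18 (adjusted p = 1.35e-06) and Ptgs2 was a DEG. Without replicate 3 of 30 min it was 0.75. With a pseudocount of 0.1 FPKM it was 1.90, also a DEG. At 28 min the log2 fold change against 0 min was 0.33 (SE 0.19, adjusted p = 0.17), and 0.67 without replicate 3 of 0 min, which passed the adjusted p-value. From 16 to 26 min Ptgs2 ranged from 0.17 to 0.67 FPKM in 18 kidneys with a median of 0.33, all within the sham range.

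Ptgs1, the constitutive cyclooxygenase, had more FPKM than Ptgs2 in every kidney. It stood at 8.1, 6.45 and 9.63 FPKM at 0 min, 5.85, 6.58 and 5.39 at 28 min, and 10.25, 6.82 and 8.68 at 30 min. In FPKM the kidneys of 28 min were low, but replicate 2 of that time lay within the sham range. Those of 30 min overlapped the sham range, with replicate 1 above it. Ptgs1 fell at 28 min by 0.49 on the log2 scale (SE 0.15, adjusted p = 0.011), and the adjusted p-value was 0.067 without replicate 3 of 0 min. From 28 to 30 min it rose by 0.47 (SE 0.15, adjusted p = 0.044). That rise did not hold without any 1 of 5 kidneys, replicates 1, 2 and 3 of 28 min and replicates 1 and 3 of 30 min, where its adjusted p-value reached 0.148. At 30 min against 0 min the log2 fold change was -0.02 (SE 0.15, adjusted p = 0.95). Ptgs1 over Ptgs2, as a ratio of FPKM within a kidney, was 24.9 ± 13.8 (SD, n = 3) in the 26 min group, 7.32 ± 0.291 in the 28 min group and 5.67 ± 2.68 in the 30 min group. At 0 min it spanned 8.37 to 73.6, the lowest in replicate 3. Exons of Gm43621 overlap those of Ptgs1 on the other strand, and without strand their reads cannot be told apart.

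Ptges encodes the microsomal synthase of prostaglandin E that is known to be induced together with Ptgs2. It stood at 9.44, 8.83 and 9.8 FPKM at 0 min, 12.4, 12.84 and 10.54 at 28 min, and 14.69, 12.44 and 14.96 at 30 min. In FPKM the kidneys of both late times were all above those of 0 min, but after quantile normalization replicate 3 of 28 min was not. Ptges rose at 30 min, with a log2 fold change of 0.43 (SE 0.10, adjusted p = 0.00077). At 28 min its log2 fold change was 0.18 (SE 0.10, adjusted p = 0.13). It passed at 28 min with a log2 fold change of 0.32 when the values were not quantile normalized. From 16 to 26 min Ptges stayed between 8.11 and 12.5 FPKM, with 9 of the 18 kidneys above the highest sham kidney and 3 below the lowest.

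Ptges2, a second enzyme reported to make prostaglandin E, had the smallest standard error of the 8 on the log2 scale. It stood at 22.92, 22.49 and 21.71 FPKM at 0 min, 27.94, 27.14 and 27.41 at 28 min, and 25.11, 27.34 and 27.43 at 30 min. All 18 kidneys of 16 to 26 min, at 22.94 to 28.46 FPKM, were above the highest sham kidney, as were 12.8% of all genes. After quantile normalization the differences were small, and replicates 2 and 3 of 16 min and replicate 3 of 26 min lay within the sham range. Ptges2 rose by 0.18 on the log2 scale at 18 min (SE 0.06, adjusted p = 0.03), by 0.20 at 24 min (adjusted p = 0.017), by 0.16 at 28 min (adjusted p = 0.031) and by 0.17 at 30 min (adjusted p = 0.024). Without replicate 3 of 0 min none of the 4 passed, with adjusted p-values of 0.12, 0.077, 0.131 and 0.106.

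Ptgds, the lipocalin-type synthase of prostaglandin D, had the largest standard error of the 8 on the log2 scale. It stood at 19.11, 12.39 and 20.68 FPKM at 0 min, 14.7, 18.47 and 8.79 at 28 min, and 16.44, 15.28 and 4.15 at 30 min. One kidney of each late time was low, and the groups overlapped. The log2 fold change was -0.45 (SE 0.40, adjusted p = 0.39) at 28 min and -0.78 (SE 0.40, adjusted p = 0.11) at 30 min. Without replicate 3 of 30 min the latter was -0.20. Without replicate 1 of 30 min it was -1.09 (adjusted p = 0.0429). The highest value of the series, 31.37 FPKM, was in replicate 3 of 18 min.

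Hpgd, whose product inactivates prostaglandins by oxidising them, was a DEG at both late times. It stood at 8.32, 6.96 and 7.63 FPKM at 0 min, 2.01, 3.57 and 2.92 at 28 min, and 2.7, 2.39 and 3.94 at 30 min. Every late kidney was below every sham kidney. Hpgd fell by 1.29 on the log2 scale at 28 min (SE 0.21, adjusted p = 4e-05) and by 1.22 at 30 min (SE 0.21, adjusted p = 5.6e-05), with 0.371 and 0.394 of the sham mean in FPKM. Without any 1 of the kidneys compared, the log2 fold change at 30 min stayed between -1.34 and -1.14. At 26 min it stood at 4.98, 4.34 and 5.48 FPKM, and had fallen by 0.67 (SE 0.21, adjusted p = 0.019). It had also fallen by 0.57 at 22 min (SE 0.21, adjusted p = 0.046). The call at 22 min did not hold without any 1 of the 6 kidneys compared (adjusted p from 0.0502 to 0.147). That at 26 min did not hold without replicate 1 of 0 min (adjusted p = 0.067) or replicate 2 of 26 min (adjusted p = 0.0727). Of the 18 kidneys of 16 to 26 min, 15 were below the lowest sham kidney, the lowest at 3.63 FPKM (replicate 2 of 16 min) and the highest at 8.2 (replicate 3 of 16 min). At 16 min the log2 fold change was -0.46 (adjusted p = 0.13), and without replicate 3, the kidney with low Lcn2, it was -0.71 and passed (adjusted p = 0.0141).

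Ptger3, encoding the EP3 receptor, was the most abundant of the 8 at 0 min and fell furthest. It stood at 38.62, 29.68 and 27.97 FPKM at 0 min, 16.47, 7.46 and 14.08 at 26 min, 5.61, 7.61 and 5.74 at 28 min, and 6.21, 5.78 and 10.29 at 30 min. All 9 kidneys of these 3 late times were below the sham kidneys. Ptger3 fell by 1.44 on the log2 scale at 26 min (SE 0.37, adjusted p = 0.0056), by 2.27 at 28 min (adjusted p = 3.5e-05) and by 2.09 at 30 min (adjusted p = 6.8e-05). The mean FPKM was 0.395, 0.197 and 0.231 of the sham mean. Replicate 3 of 30 min was the highest of its group, and without it the log2 fold change was -2.32. Of the 18 kidneys of 16 to 26 min, 15 were below the lowest sham kidney, with a range of 7.46 to 34.21 FPKM. From 16 to 24 min the log2 fold changes lay between -0.45, at 16 min, and -0.92, at 18 min (adjusted p = 0.068), and none passed. Without replicate 3 of 18 min it was a DEG at that time (-1.14, adjusted p = 0.0483), and without replicate 3 of 20 min it was a DEG at 20 min (-1.21, adjusted p = 0.021).

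Ptger4, encoding the EP4 receptor, rose. It stood at 1.15, 0.98 and 1.11 FPKM at 0 min, 2.75, 3.5 and 3.01 at 28 min, and 3.81, 3.54 and 5.41 at 30 min. The 3 groups did not overlap. At 30 min its log2 fold change was 1.18 (SE 0.13, adjusted p = 3.3e-07), a DEG, and its mean FPKM was 3.94 times that of sham. Without any 1 of the kidneys compared it stayed between 1.05 and 1.25. At 28 min it was 0.84 (SE 0.13, adjusted p = 3.2e-05), and it was a DEG with 1.20 under a pseudocount of 0.1 FPKM. Ptger4 also passed at 3 earlier times, with log2 fold changes of 0.59 at 22 min (adjusted p = 0.0024), 0.54 at 24 min (adjusted p = 0.005) and 0.51 at 26 min (adjusted p = 0.0065). All 18 kidneys of 16 to 26 min, at 1.36 to 2.95 FPKM, were above the highest sham kidney, which held for 12.8% of all genes. At 16 min, with 2.29, 1.98 and 1.44 FPKM, the log2 fold change was 0.32 (adjusted p = 0.10). The lowest of these was replicate 3, the kidney with low Lcn2, and without it Ptger4 passed with 0.41 (adjusted p = 0.0392). Exons of Gm15937 and Ttc33 on the other strand overlap those of Ptger4, Ttc33 over 1.23% of its exonic bases. Whether the counting used strand is not given in the sources used here, so reads of these genes and Ptger4 may not be told apart. Ttc33 fell by 0.23 at 30 min (adjusted p = 0.021), and Gm15937 was not analysed here.

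**Figure D2:**
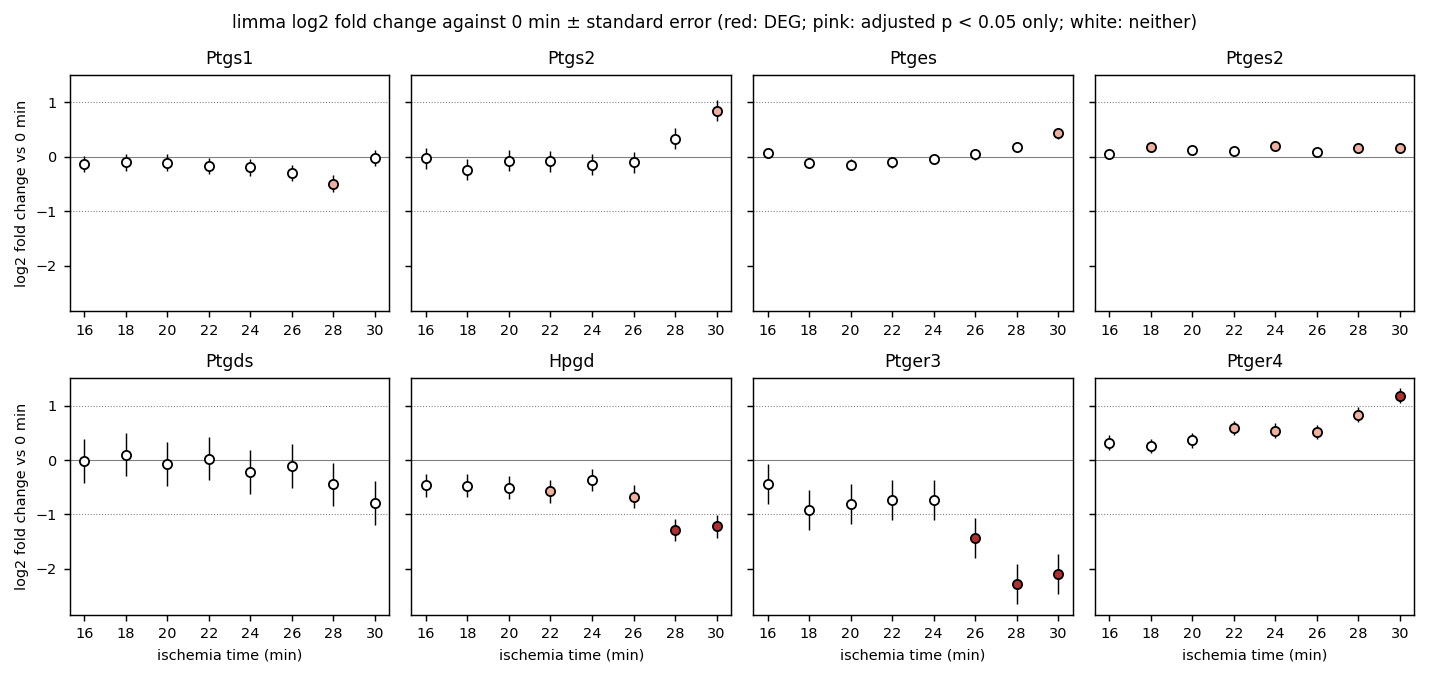
Log2 fold change against 0 min (vertical axis, on quantile normalized log2(FPKM + 1)) at each ischemia time in min (horizontal axis) for the 8 genes, with bars of 1 standard error from limma, red points for DEGs and pink points for the adjusted p-value alone. Ptger3 and Hpgd lie furthest below 0 at 28 and 30 min, and Ptger4 lies furthest above it at 30 min. Ptgs1, Ptges and Ptges2 stay within 0.49 of 0.

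Over the 6 times from 16 to 26 min no drift was called. At 26 against 16 min 0 of the 8 genes were DEGs and 0 passed the adjusted p-value (smallest 0.447), as 0.0% of all genes did in limma, of which 1717 had an unadjusted p under 0.05. The slope per min over these times was called for 0 of the 8 (adjusted p from 0.511 to 0.995), as for 0.011% of all genes, with 1514 at an unadjusted p under 0.05. The smallest of the 8 adjusted p-values was that of Ptger4, whose slope was 0.03 per min on the log2 scale (SE 0.01).

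The step from 26 to 28 min held 0 DEGs among the 8, where 1.5% of all genes were DEGs, and 1 gene passed the adjusted p-value, where 19.3% did. This was Hpgd, which fell by 0.61 on the log2 scale (SE 0.21, adjusted p = 0.046), its 3 kidneys of 28 min lying below those of 26 min. The call did not hold without any 1 of 5 kidneys, replicates 1, 2 and 3 of 26 min and replicates 1 and 3 of 28 min, where its adjusted p-value reached 0.198. Ptger3 had a log2 fold change of -0.84 at this step (SE 0.37, adjusted p = 0.12), Ptgs2 one of 0.44 (SE 0.19, adjusted p = 0.13) and Ptger4 one of 0.33 (SE 0.13, adjusted p = 0.098). Ptger4 passed without replicate 3 of 26 min (0.44, adjusted p = 0.0376). From 28 to 30 min there were 0 DEGs among the 8 (1.05% of all genes) and 1 gene passed (13.2% of all genes), the Ptgs1 rise given above. Ptgs2 had a log2 fold change of 0.51 there (SE 0.19, adjusted p = 0.088), which passed without replicate 1 of 30 min (0.66, adjusted p = 0.0357). For Ptger4 it was 0.34 (SE 0.13, adjusted p = 0.097) and for Ptges 0.25 (SE 0.10, adjusted p = 0.096).

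The receptors that couple oppositely to cyclic AMP moved in opposite directions within the same kidneys. As a ratio of FPKM within a kidney, which no scaling between kidneys can change, Ptger3 over Ptger4 was 29.7 ± 4.22 (SD, n = 3) in the sham group, 14.4 ± 7.30 after 16 min and 5.62 ± 2.55 after 26 min of ischemia. After 28 min it was 2.04 ± 0.134, and after 30 min it was 1.72 ± 0.156. The 3 kidneys spanned 25.2 to 33.6 at 0 min, 1.91 to 2.17 at 28 min and 1.63 to 1.90 at 30 min, so the late kidneys were far below sham and close to each other. Replicate 3 of 30 min, which had the highest values of both receptors in its group, was the upper end of the 30 min range, at 1.90. Hpgd over Ptgs2, breakdown against inducible synthesis, was 41.1 ± 34.5 in the sham group, 17.0 ± 8.61 after 26 min, 3.48 ± 0.825 after 28 min and 1.87 ± 0.425 after 30 min. Its lowest sham value, 6.64 in replicate 3, was still above the highest value of 28 min, 4.10. These ratios were chosen after the values were seen and carry no test.

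**Figure D3:**
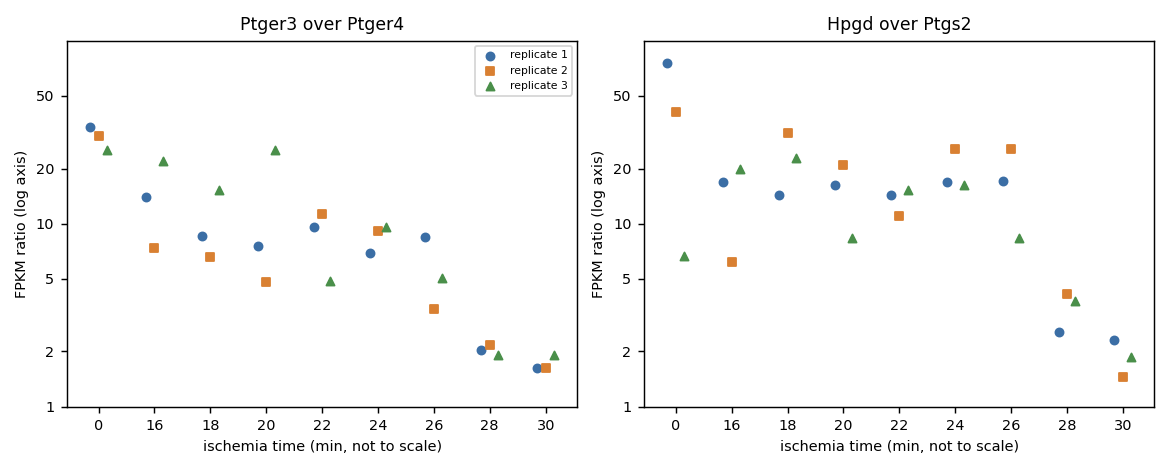
Ratio of the FPKM of paired genes within a kidney (vertical axis, log scale) against ischemia time in min (horizontal axis, categories not to scale), 1 point per kidney, marked by replicate number, with 3 kidneys per time. Ptger3 over Ptger4 falls from 25.2 to 33.6 at 0 min to 1.63 to 1.90 at 30 min, and Hpgd over Ptgs2 is lowest at 30 min, at 1.46 to 2.31.

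For the 3 genes that were DEGs, the genes with the most similar profile over the 27 kidneys were found by the root mean square difference of log2 values centred per gene, among 12346 genes with a mean of at least 1 FPKM. For Hpgd, which varied by 0.44 about its own mean by this measure, they were Abcc9 (0.171), Idh2 (0.179) and Osbpl1a (0.183). For Ptger3, which varied by 0.803, they were Aldoc (0.218), Ppp1r1a (0.26) and Lrrc66 (0.261). For Ptger4, which varied by 0.353, they were Map4k4 (0.143), Hnrnpdl (0.144) and Cttn (0.145).

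The rest of the prostanoid pathway was taken from 4 lists, whose counts at 30 min stand against 10.7% DEGs, 26.9% higher and 25.4% lower by the adjusted p-value over all genes. Among 7 genes of arachidonate release, mostly phospholipases, 0 were DEGs at 30 min against 0 min and 0 rose and 2 fell by the adjusted p-value, with a median log2 fold change of 0.05 where that of all genes was 0.00. Among 7 other synthases and reductases, 1 was a DEG and 4 rose and 2 fell by the adjusted p-value, with a median of 0.30. The DEG was Hpgds, the hematopoietic synthase of prostaglandin D, at 0.71, 0.45 and 0.34 FPKM at 0 min, and 4.24, 3.31 and 3.27 at 30 min. Every late kidney was above every sham kidney, and the log2 fold change was 1.52 (SE 0.10, adjusted p = 2e-10). Ptgds, the other synthase of prostaglandin D, did not pass at this time, as given above, and the difference between both genes was not tested.

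Among 6 genes of transport and breakdown, 2 were DEGs at 30 min, and 3 rose and 2 fell by the adjusted p-value, with a median of 0.17, where 10.7% of all genes were DEGs and 52.3% passed. Slco2a1, the transporter that takes prostaglandins into cells before Hpgd acts on them, stood at 9.49, 13.98 and 10.33 FPKM at 0 min, and 24.77, 32.79 and 37.12 at 30 min. It rose by 1.32 on the log2 scale (SE 0.20, adjusted p = 9.8e-06), in the direction opposite to Hpgd, and was a DEG at 28 min too (1.22). Ptgr2, a reductase that acts on the oxidised product, stood at 54.66, 54.52 and 47.87 FPKM at 0 min, and 26.14, 24.52 and 19.98 at 30 min. It fell by 1.19 (SE 0.12, adjusted p = 5.3e-08). Among 7 other receptors, 1 was a DEG and it was the one to pass by the adjusted p-value, with a median of -0.01. This was Ptger1, encoding EP1, at 6.83, 3.78 and 5.22 FPKM at 0 min, and 3.06, 1.13 and 1.62 at 30 min, which fell by 1.22 (SE 0.37, adjusted p = 0.0085). Ptger2, encoding EP2, which like EP4 raises cyclic AMP, was at most 0.13 FPKM in any kidney. Ptgdr and Ptgdr2, also among these receptors, were at most 0.06 and 0.11 FPKM. The log2 scale used understates changes of such genes, and so does the median of this list. At 28 against 26 min 0 genes of these 4 lists were DEGs.

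**Figure D4:**
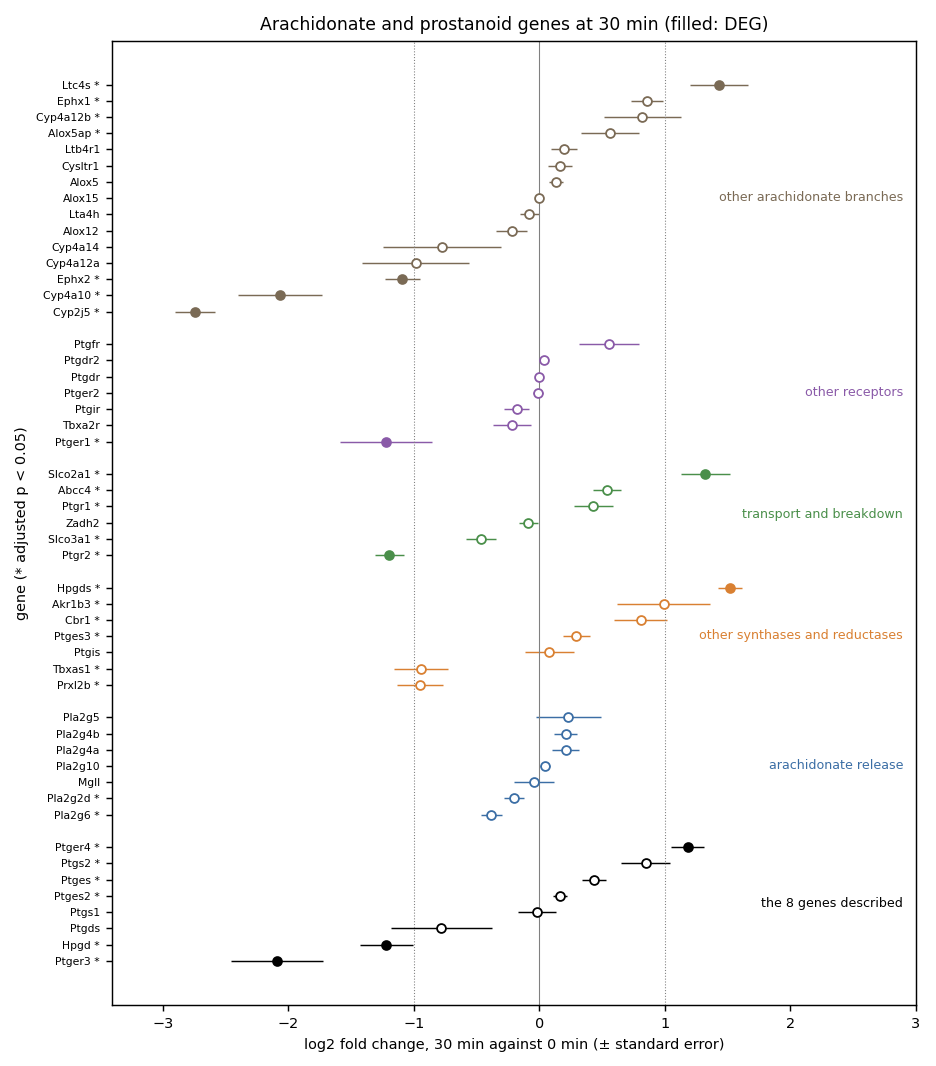
Log2 fold change at 30 min against 0 min (horizontal axis, quantile normalized log2(FPKM + 1)) for the 8 genes and the genes of the 4 other prostanoid lists and of the other arachidonate branches, with bars of 1 standard error from limma filled points for DEGs and an asterisk for genes that passed the adjusted p-value. Ptger3, Hpgd, Ptgr2 and Ptger1 are DEGs below 0, and Hpgds, Slco2a1 and Ptger4 are DEGs above it. In the other branches Cyp2j5, Cyp4a10 and Ephx2 are DEGs below 0 and Ltc4s above it.

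Markers of several cell types moved with these genes, and their part in the results was not tested. Ptger3 is known from the thick ascending limb and collecting duct. The summed FPKM of the 4 thick ascending limb and macula densa markers was 522.9 to 782.1 at 28 min, and 509.3, 504.6 and 2190 at 30 min, with 2 of 4 lower as DEGs, Slc12a1 by 2.43 and Umod by 1.05. Within the 30 min group the high sum was that of replicate 3. That kidney also had the highest Ptger3, Ptger4, Hpgd, Ptgs2, Ptges and Ptges2 of the group, and the lowest Ptgds. Its sums were the highest for the other marker lists too, among them the injured tubule list (4903 FPKM against 2498 and 3320). Exceptions were the proximal tubule and neutrophil lists, where its sums were the lowest. The 5 principal cell markers summed to 312.4 to 471.5 FPKM at 0 min and 296.5 to 647 at 30 min, with 1 of 5 lower, and the 3 intercalated cell markers to 58.0 to 71.7 and 34.3 to 50.4, with 1 of 3 lower. The 5 proximal tubule markers summed to 640.5 to 735.8 FPKM at 30 min, with 4 of 5 lower. The 6 neutrophil markers summed to 3.06, 8.11 and 10 FPKM at 0 min and 20.8 to 28.4 at 30 min, with 2 of 6 higher as DEGs. The 6 macrophage markers summed to 64.8 to 75.1 and 74.6 to 137.8, with 2 higher and 1 lower. The 4 smooth muscle and mural markers summed to 27.2 to 34.4 and 132.4 to 446.2, with 3 higher. Of 6 fibroblast markers 2 were higher and 1 lower, of 3 distal convoluted tubule markers 2 were lower, and of 4 podocyte and 4 endothelial markers 0 were DEGs. By the adjusted p-value 3 of the 4 endothelial markers rose, with sums of 56.8 to 68.8 FPKM at 0 min and 79.2 to 122.8 at 30 min, and 2 of the 4 podocyte markers rose, with sums of 39.3 to 55.5 and 63.6 to 110.9. By the same rule 5 of 6 neutrophil markers rose, and 3 of 6 fibroblast markers rose and 1 fell. All 3 distal convoluted tubule markers fell, as did 2 of 3 intercalated and 2 of 5 principal cell markers. The thick ascending limb, proximal tubule, macrophage and smooth muscle lists had the same counts under both rules. At 30 min 10.7% of all genes were DEGs, and 26.9% rose and 25.4% fell by the adjusted p-value. Of the 3 injured tubule markers 3 were DEGs higher at every time from 16 min on.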

How the data were processed

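RNA from 27 left kidneys was sequenced on a DNBSEQ-G400. The authors deposited FPKM, with 1 value for each gene symbol in each kidney. The submitters' processing notes name GRCm38.p6, Bowtie2, RSEM and DESeq2 with no versions, and the annotation and strand setting are not given in the sources used here. The values were linear and were not quantile normalized.

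The labelled ischemia time set each kidney's group. The mice are separate animals and no batch is labelled. Values were taken as log2(FPKM + 1), quantile normalized and fitted in limma 3.58.1 (R 4.3.3) with a mean for each of the 9 groups. Genes that were not above 0 FPKM in 3 or more kidneys were left out, and p-values were Benjamini-Hochberg adjusted over the remaining 18188. The fit was tested on simulated data. Tables and figures were made in Python 3.11.15 with pandas 2.3.3 and matplotlib 3.10.9. Promoters are from RefSeq and gene positions from GENCODE, both on GRCm38.

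The 8 genes are named in every comparison. Of the pathway lists, DEGs at 30 against 0 min or 28 against 26 min are named, up to 6 per list, and for each of the 8 that was a DEG, the 3 genes of most similar profile. Other names were chosen after their values were seen. The genes and lists were chosen with earlier results of these data known. Of the list symbols, Cyp2c44 was not matched, and Fam213b and Ptgr3 were matched under their other symbols, Prxl2b and Zadh2.

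Alternatives tried were no quantile normalization, a pseudocount of 0.1 FPKM, a constant sum per kidney, a filter of 1 FPKM in 3 kidneys (12929 genes), no filter (19167 genes), the 2 groups alone, a trend in the variance, a replicate block, the adjusted p-value alone, and leaving out each kidney.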

Additional observations from a re-analysis of the deposited data

How the results depend on the processing

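The number of the 8 genes called stayed within 1.5 times its value under each alternative except the following. By the adjusted p-value alone it was 1 in place of 0 at 18 min against 0 min, 2 in place of 0 at both 22 and 24 min, 3 in place of 1 at 26 min, 5 in place of 2 at 28 min and 6 in place of 3 at 30 min. It was 1 in place of 0 for both 28 against 26 min and 30 against 28 min. Leaving out 1 kidney at a time gave 0 to 1 at 18 min and 0 to 1 at 20 min, where Ptger3 became a DEG without replicate 3 of that time. It gave 3 to 4 at 30 min. At 16 min no DEG was gained, but Hpgd and Ptger4 passed the adjusted p-value without replicate 3 of that time. The log2 fold change of Ptgs1 at 30 min against 0 min (-0.02) was 0.08 without quantile normalization, 0.09 with a constant sum, and -0.14 to 0.11 without 1 kidney. At 30 against 28 min, that of Ptges2 (0.01) was -0.05 without quantile normalization, -0.03 with a constant sum and -0.02 to 0.05 without 1 kidney. At the same step, without 1 kidney, it was -0.65 to 0.25 for Ptgds, -0.08 to 0.18 for Hpgd and -0.04 to 0.30 for Ptger3. None of these 5 passed the test in either direction, and the cause was not tested. Ptgs2 at 30 min did not pass in a fit of the 2 groups alone (adjusted p = 0.0913). Values for single genes were counted over the alternatives only in some comparisons. These were ones where the gene passed in the main fit, and 30 against 0, 28 against 26 and 30 against 28 min for all 8. Of these values, 453 kept their direction and side of the threshold, 47 no longer passed, 4 newly passed and 14 turned direction. The new passes at 16, 18, 20 and 28 min against 0 min given above lie outside this count. No pairing of the kidneys by replicate number was seen. In 108 pairs of the same number, deviations correlated from -0.416 to 0.48, with a median of -0.00875. For pairs of other numbers the median was -0.00999. Of the 27 kidneys, 10 correlated best, on average, with those of their own number. Fits with a replicate block called 3 genes at 30 min and changed no call of the 8 genes. Genes near 1 FPKM, Ptgs2 and Ptger4, are those whose fold changes depend most on the pseudocount, and 3 kidneys per group limit the precision of every value.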

Other observations

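Arachidonate that is not taken by the cyclooxygenases can enter other branches, among them the leukotriene pathway and the cytochrome P450 epoxygenases and hydroxylases, which are rich in the proximal tubule. Of 15 genes of these branches tested at 30 min against 0 min, 1 was a DEG higher and 3 were DEGs lower, and by the adjusted p-value 4 rose and 3 fell, where 10.7% of all genes were DEGs and 52.3% passed the adjusted p-value. Cyp2j5, an epoxygenase, stood at 579.6, 589.9 and 521.7 FPKM at 0 min and 113.0, 81.14 and 79.78 at 30 min, and fell by 2.74 on the log2 scale (SE 0.16, limma adjusted p = 7e-11). Cyp4a10, of the hydroxylase family, stood at 416.1, 539.9 and 545.3 FPKM at 0 min and 103.7, 221.1 and 86.78 at 30 min, and fell by 2.07 (SE 0.33, limma adjusted p = 2.8e-05). Ephx2, the epoxide hydrolase that breaks down the epoxygenase products, stood at 224.7, 191.9 and 188.8 FPKM at 0 min and 78.83, 122.6 and 69.47 at 30 min, and fell by 1.09 (SE 0.14, limma adjusted p = 1.8e-06). In these 3 genes no kidney of 30 min reached the sham range.

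Ltc4s, the leukotriene C synthase, stood at 4.83, 4.98 and 4.84 FPKM at 0 min and 10.02, 16.21 and 26.14 at 30 min, and rose by 1.43 (SE 0.23, limma adjusted p = 2.4e-05). Ltc4s was above the sham kidneys at 16 min too, at 11.22, 13.93 and 7.68 FPKM. The neutrophil markers summed to 3.06 to 10 FPKM at 0 min and 3.01 to 10.92 at 16 min. In the kidneys of 30 min the markers of the proximal tubule were lower and those of neutrophils higher. The part of these cell types in the values was not tested.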
